A study of Homo sapiens with 12 samples.

Results

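The UGT2B genes encode UDP-glucuronosyltransferases, membrane enzymes of the endoplasmic reticulum. The values below are those of UGT2B7, UGT2B10, UGT2B11, UGT2B15, UGT2B17 and UGT2B28 in RNA of human prostate cancer cell lines. The members were chosen by gene symbol from the family's enzymes of androgen conjugation and their close relatives. They are 6 of the 57992 gene rows of the count table. RNA was selected by its poly(A) tail, and the values are counts of reads or fragments per gene. The lines compared were MR49F, labelled resistant to enzalutamide, and C4-2 and LNCaP, both labelled sensitive. Each of these 3 lines had 3 replicates. Enzalutamide is an antiandrogen used against prostate cancer. LNCaP is an androgen-responsive line from a prostate cancer metastasis, C4-2 is its castration-resistant subline, and MR49F is its derivative selected for enzalutamide resistance. The labels give prostate adenocarcinoma cells as the source of every sample and name no drug, dose or medium at harvest. Each line is 1 line, so a difference between lines is not a difference between sensitive and resistant tumours in general. C4-2R, the other line labelled resistant, was not analysed here.

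UDP-glucuronosyltransferases join glucuronic acid, taken from the donor UDP-glucuronic acid, to small fat-soluble molecules, and the product can leave the cell. In the prostate, UGT2B15 and UGT2B17 conjugate dihydrotestosterone and its reduced metabolites, androstanediol and androsterone and so inactivate them. UGT2B7 and UGT2B10 are best known from the liver, where UGT2B7 acts on opioids, steroids and many drugs and UGT2B10 on nicotine and other amines. UGT2B28 has been reported to act on androgens and estrogens, and UGT2B11 on hydroxylated fatty acids. UGT2B17 and UGT2B28 are missing from the genomes of some people.

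LNCaP carried far more UGT2B RNA than MR49F or C4-2. UGT2B17 and UGT2B15 led in LNCaP, and the little that was measured in the other lines was led by UGT2B11 in MR49F and by UGT2B15 in C4-2. Summed over the 6 genes, the level was 7.08 ± 1.18 CPM in MR49F, 11.8 ± 0.316 CPM in C4-2 and 286.9 ± 4.11 CPM in LNCaP (SD, n = 3 each). CPM are counts scaled to a common library size, here with TMM, which assumes that most genes do not change.

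All 6 genes lie in 1 cluster on chromosome 4 (GRCh38). Its members span chr4:68537184-69295050, a stretch of 757.9 kb. In chromosomal order they are UGT2B17 (ENSG00000197888), UGT2B15 (ENSG00000196620), UGT2B10 (ENSG00000109181), UGT2B7 (ENSG00000171234), UGT2B11 (ENSG00000213759) and UGT2B28 (ENSG00000135226). UGT2B17, UGT2B15 and UGT2B11 are read from the minus strand and the other members from the plus strand.

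The family is made of near-identical copies, which bears on every value below. The coding sequences of UGT2B15 and UGT2B17 were 96.5% identical and those of UGT2B11 and UGT2B28 97.0% identical. UGT2B10 and UGT2B11 shared 94.8% of their coding bases. Between either of UGT2B15 and UGT2B17 and the other 4 members, identity was 83.7% to 85.2%. Per the labels the reads were 100 bases long from each end, so each transcript was also cut into windows of 100 bases. In UGT2B15 and in UGT2B17, 87.3% of windows occurred in no transcript of another gene, and 252 of 1978 windows were shared exactly between them. The share was 90.7% in UGT2B11, 93.4% in UGT2B10 and 94.3% in UGT2B28, and every window of UGT2B7 was its own. With 2 mismatches allowed, another gene matched 66.3% of the windows of UGT2B11, 51.3% of those of UGT2B28 and 49.0% of those of UGT2B10. It matched 36.9% of those of UGT2B15 and of UGT2B17. How reads matching more than 1 place were treated is not given in the sources used here, so the split of counts within each pair is less certain than the summed counts. The summed counts are not free of this either. A UGT2B pseudogene outside the 6 members shared the most exact windows with UGT2B11, at 129, and with UGT2B28, at 56. Reads given to another gene or dropped would be missing from the sums.

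The following 100-base stretches of first coding exons are shown because UGT2B15 and UGT2B17 differed in C4-2 and UGT2B10 and UGT2B11 differed in MR49F. They are the windows of each pair with the most differences, 12 for UGT2B15 and UGT2B17 and 14 for UGT2B10 and UGT2B11, written from 5′ to 3′ on the gene's strand. Capitals mark the bases at which the pair differs. The stretches lie at chr4:68670159-68670258 (UGT2B15, minus strand), chr4:68568025-68568124 (UGT2B17, minus strand), chr4:68816284-68816383 (UGT2B10, plus strand) and chr4:69214356-69214455 (UGT2B11, minus strand), all GRCh38.
UGT2B15: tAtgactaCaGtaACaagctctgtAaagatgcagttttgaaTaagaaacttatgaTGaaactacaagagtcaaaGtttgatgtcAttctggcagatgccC
UGT2B17: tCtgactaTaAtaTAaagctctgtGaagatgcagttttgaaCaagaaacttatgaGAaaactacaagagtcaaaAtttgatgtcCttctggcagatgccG
UGT2B10: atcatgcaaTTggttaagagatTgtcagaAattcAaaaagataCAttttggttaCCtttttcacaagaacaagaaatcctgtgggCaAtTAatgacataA
UGT2B11: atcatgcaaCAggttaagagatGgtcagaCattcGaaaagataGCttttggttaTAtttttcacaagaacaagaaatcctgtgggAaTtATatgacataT
At the other extreme, coding bases 542 to 641 of UGT2B15 and UGT2B17 were the same in every position. Taken alone, a read from that stretch cannot be given to either gene, and the read from the other end was not considered here:
UGT2B15 and UGT2B17: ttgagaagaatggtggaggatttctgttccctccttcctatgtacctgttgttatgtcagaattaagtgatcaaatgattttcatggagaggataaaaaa

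Library totals lay between 6990461 and 9375912 counts, except for C4-2 replicate 1, which had 42770072. At these depths 3 counts correspond to between 0.32 and 0.429 CPM in the shallower libraries and to 0.0721 CPM in C4-2 replicate 1. All 8 prostate luminal markers checked were at 1 CPM or more in each of the 3 lines, while of 3 basal markers KRT5 had no count in any, TP63 had 1 count, in LNCaP, and the keratin KRT14 had 14 counts in MR49F, 72 in C4-2 and 28 in LNCaP. The test was edgeR's quasi-likelihood test over the 15407 genes with enough counts, and a call is a Benjamini-Hochberg adjusted p under 0.05. P-values weigh a difference against the spread between the 3 cultures of a line. This spread was estimated in 1 fit of all 9 libraries, so it also includes the line not compared. In RNA from many cells, fewer cells expressing a gene and less RNA per cell cannot be told apart.

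UGT2B17 carried the highest level of the family in LNCaP. It had 11, 8 and 25 counts in MR49F, 82, 18 and 21 counts in C4-2, and 1286, 1273 and 1087 counts in LNCaP. These are 1.68 ± 1.05 CPM in MR49F, 2.42 ± 0.532 CPM in C4-2 and 144 ± 6.27 CPM in LNCaP (SD, n = 3 each). Every LNCaP library lay far above every library of the other lines, while MR49F and C4-2 overlapped. MR49F replicate 3 held 25 of the 44 MR49F counts.

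UGT2B15 stood at 3 separate levels. Its counts were 5, 9 and 5 in MR49F, 385, 67 and 57 in C4-2, and 936, 828 and 719 in LNCaP. The means were 0.731 ± 0.293 CPM in MR49F, 8.63 ± 0.561 CPM in C4-2 and 97.7 ± 3.19 CPM in LNCaP (SD, n = 3 each). No library of 1 line overlapped a library of another, and the deep C4-2 library, at 9.25 CPM, was close to the other C4-2 libraries at 8.48 and 8.16 CPM.

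UGT2B11 took a different order, with C4-2 lowest. MR49F had 40, 24 and 30 counts, C4-2 had 15, 6 and 1 counts, and LNCaP had 334, 328 and 235 counts. Its means were 3.56 ± 0.769 CPM in MR49F, 0.421 ± 0.313 CPM in C4-2 and 35.1 ± 2.48 CPM in LNCaP (SD, n = 3 each). The 3 lines did not overlap, and MR49F was the middle one. An antisense gene, ENSG00000250696, overlaps UGT2B11 on the opposite strand and had no count in any library.

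UGT2B28 followed the same order at a lower level. It had 7, 8 and 10 counts in MR49F, 6, 1 and 1 counts in C4-2, and 23, 34 and 28 counts in LNCaP. The means were 0.956 ± 0.193 CPM in MR49F, 0.138 ± 0.00987 CPM in C4-2 and 3.39 ± 0.811 CPM in LNCaP (SD, n = 3 each). The lines did not overlap, but the C4-2 level rests on 8 counts in all.

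UGT2B10 was detected mainly in LNCaP. MR49F had 0, 1 and 1 counts and LNCaP had 65, 58 and 43 counts. In C4-2 all 11 counts came from the deep replicate 1, at 0.264 CPM, and replicates 2 and 3 had none. At their depth, 3 counts would be 0.38 and 0.429 CPM, above the level of replicate 1. Whether the 3 C4-2 libraries differ beyond their depth was not tested. The LNCaP mean was 6.49 ± 0.515 CPM (SD, n = 3).

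UGT2B7 had too few counts in any line to be tested. It had 1, 0 and 1 counts in MR49F, 3, 2 and 0 counts in C4-2, and 5, 2 and 0 counts in LNCaP. The 3 lines overlapped, and any difference was not detectable at this depth. UGT2B4, the liver gene of bile acid conjugation and not among the 6, was also low and was not tested, with 8, 1 and 4 counts in MR49F, 6, 1 and 0 in C4-2, and 4, 4 and 8 in LNCaP.

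**Figure D1:**
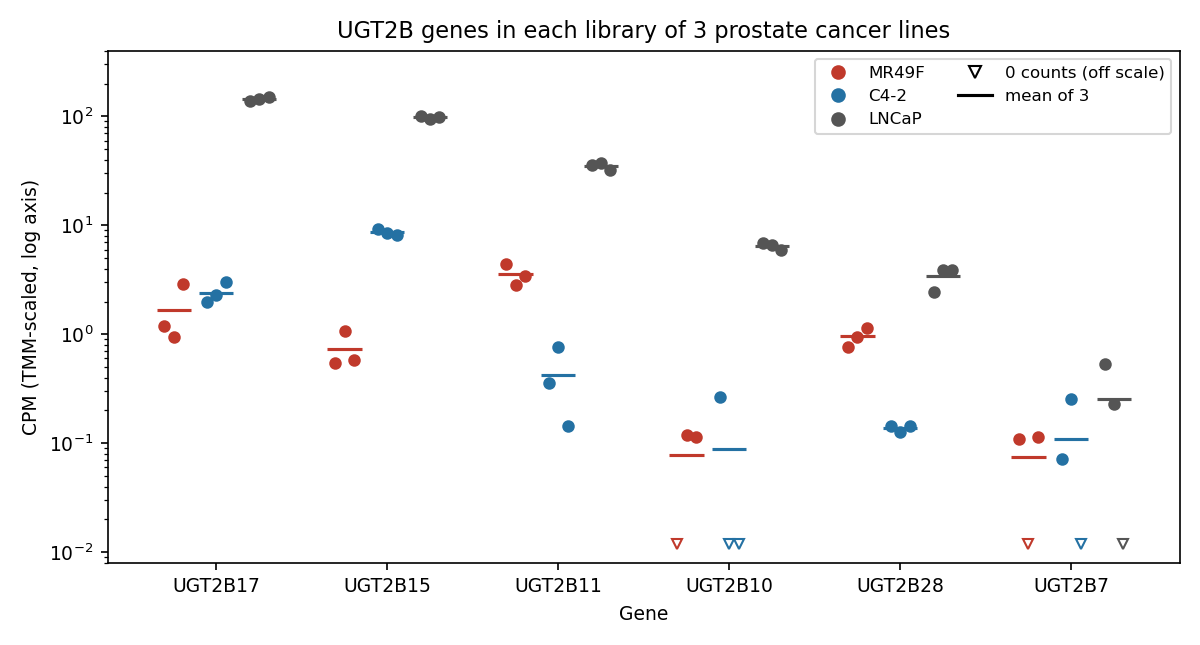
Level of each UGT2B gene in each library, in TMM-scaled CPM on a log axis, with MR49F, C4-2 and LNCaP from left to right within a gene, 1 point per library and a line at the mean of 3. LNCaP lies above both other lines for every gene but UGT2B7, C4-2 lies above MR49F for UGT2B15 and below it for UGT2B11 and UGT2B28, and open triangles mark libraries with 0 counts, drawn below the scale.

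Levels of different genes can be compared only per length. In CPM per kb of exon, LNCaP had UGT2B17 at 69.3 ± 3.02, UGT2B15 at 47.0 ± 1.53, UGT2B11 at 15.0 ± 1.06, UGT2B10 at 3.36 ± 0.267, UGT2B28 at 1.85 ± 0.443 and UGT2B7 at 0.112 ± 0.119 (SD, n = 3 each). No 2 neighbours in this order overlapped between libraries. In MR49F the order began with UGT2B11 at 1.52 ± 0.329 CPM per kb, followed by UGT2B17 at 0.808 ± 0.505, UGT2B28 at 0.522 ± 0.106 and UGT2B15 at 0.352 ± 0.141 (SD, n = 3 each). Each of these neighbours overlapped the next. In C4-2, UGT2B15 led at 4.15 ± 0.270 CPM per kb, UGT2B17 had 1.16 ± 0.256 and UGT2B11 had 0.180 ± 0.134 (SD, n = 3 each). These 3 did not overlap, whereas UGT2B11 and UGT2B28, at 0.0752 ± 0.00538 CPM per kb, did.

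Summed over the 6 members, the level was 7.003, 5.938 and 8.299 CPM in MR49F, 12.06, 11.89 and 11.45 CPM in C4-2, and 282.9, 286.6 and 291.1 CPM in LNCaP. No library of 1 line overlapped a library of another. The mean sum was 40.5 times lower in MR49F and 24.3 times lower in C4-2 than in LNCaP. This sum does not depend on how reads were split between members, and the members were chosen with results known, so it carries no test.

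The make-up of the family differed as well as its amount. UGT2B11 held 50.5% of the 186 family counts of MR49F (95% Clopper-Pearson interval 43.1% to 57.9%, counting error only), 3.25% of the 676 of C4-2 (2.05% to 4.89%) and 12.3% of the 7284 of LNCaP (11.6% to 13.1%). UGT2B15 held 10.2% in MR49F (6.26% to 15.5%), 75.3% in C4-2 (71.9% to 78.5%) and 34.1% in LNCaP (33.0% to 35.2%). UGT2B17 held 23.7% in MR49F (17.7% to 30.4%), 17.9% in C4-2 (15.1% to 21.0%) and 50.1% in LNCaP (48.9% to 51.2%). UGT2B28 held 13.4% in MR49F, 1.18% in C4-2 and 1.17% in LNCaP. Replicate 1 gave 502 of the 676 counts of C4-2, so the pooled shares and intervals of that line rest mainly on 1 library. The UGT2B11 share ranged from 41.7% to 62.5% over the libraries of MR49F, from 1.25% to 6.38% in C4-2 and from 11.1% to 13.0% in LNCaP. Such spread between libraries is not covered by the intervals. In single libraries the UGT2B15 share ranged from 6.94% to 18.0% in MR49F, from 71.3% to 76.7% in C4-2 and from 32.8% to 35.3% in LNCaP, so the 3 lines did not overlap. The UGT2B17 share of MR49F, at 16% to 34.7%, overlapped that of C4-2, at 16.3% to 26.3%.

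**Figure D2:**
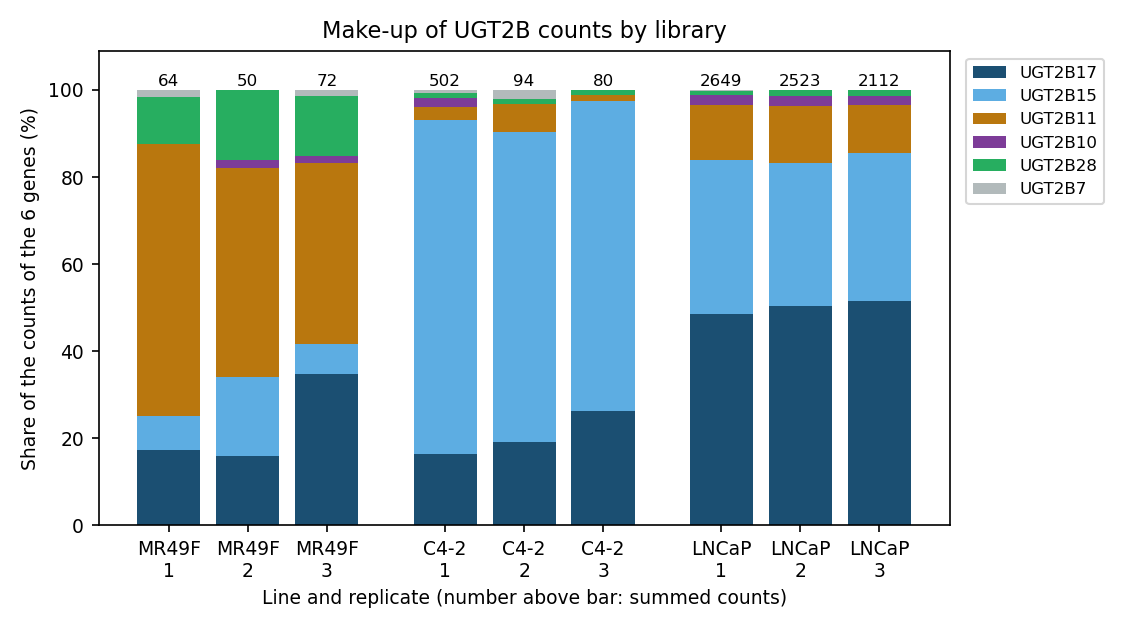
Share of the counts of the 6 UGT2B genes held by each gene, in percent, as a stacked bar for each library of MR49F, C4-2 and LNCaP, with the summed counts above each bar. UGT2B11 is the widest band in every MR49F library, UGT2B15 in every C4-2 library and UGT2B17 in every LNCaP library, and the MR49F bars rest on 50 to 72 counts.

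In MR49F against LNCaP, the comparison of the resistant line with the line it derives from, the 5 tested members were all lower in MR49F. Of all genes tested, 22.8% were called lower in this comparison, 24.1% were called higher and 47% were called in either direction. UGT2B10 and UGT2B28 passed the filter on low counts through LNCaP alone, so for them a low level in another line could appear only as a difference. UGT2B15 was lower by a log2 fold change of -7.06 (SE 0.166), or 133 times, with an adjusted p of 4.26e-18 in edgeR. UGT2B17 was 85.3 times lower (log2 fold change -6.41, SE 0.182, edgeR adjusted p = 7.32e-17). Without MR49F replicate 3, in which most of its counts lay, the log2 fold change was -7.05. UGT2B11 was 9.80 times lower in MR49F (log2 fold change -3.29, SE 0.169, edgeR adjusted p = 1.44e-12). UGT2B28 was 3.50 times lower (log2 fold change -1.81, SE 0.313, edgeR adjusted p = 7.56e-05). UGT2B10 had 2 counts in MR49F against 166 in LNCaP, a ratio of pooled counts of 85.7 times lower in MR49F (95% interval 23.3 to 713, counting error only), with an edgeR adjusted p of 2.75e-09. UGT2B15, UGT2B17, UGT2B10 and UGT2B11 were lower by a log2 fold change of -2 or below, as were 3.21% of all tested genes. UGT2B15 stood 62nd from the lowest fold change of 15407. None of the 5 members overlapped between the lines, nor did 59.8% of all tested genes.

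In C4-2 against LNCaP, 2 lines labelled sensitive, all 5 tested members were again lower, against 23.5% of all tested genes called lower, 26.2% called higher and 49.7% called in either direction. The 2 comparisons share the LNCaP libraries, so they are not independent of each other. Here too UGT2B10 and UGT2B28 are in the test through LNCaP alone. Their lower calls and lack of overlap were therefore favoured in advance, and the counts over all 5 members include them. UGT2B11 was 87.5 times lower in C4-2 (log2 fold change -6.45, SE 0.224, edgeR adjusted p = 2.85e-15). UGT2B17 was 65.4 times lower (log2 fold change -6.03, SE 0.165, edgeR adjusted p = 6.16e-17). UGT2B28 was 22.2 times lower (log2 fold change -4.47, SE 0.388, edgeR adjusted p = 6.43e-09). UGT2B15, the gene of dihydrotestosterone conjugation that made up most of the C4-2 family counts, was 11.1 times lower (log2 fold change -3.47, SE 0.107, edgeR adjusted p = 4.52e-16). UGT2B10 was 33.6 times lower by pooled counts, 11 against 166 (95% interval 18.3 to 68.5, counting error only), with an edgeR adjusted p of 4.58e-10. Its fitted log2 fold change was -5.03, and -8.76 without C4-2 replicate 1, where C4-2 has no count left and the fitted value is no bound. All 5 passed a log2 fold change of -2, as did 1.29% of all tested genes. UGT2B11 stood 17th and UGT2B17 22nd from the lowest fold change. Again none of the 5 overlapped between the lines, nor did 55.7% of all tested genes.

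In MR49F against C4-2 the members parted. UGT2B15 was 12.02 times lower in MR49F (log2 fold change -3.59, SE 0.219, edgeR adjusted p = 1.53e-11). UGT2B11 was 8.93 times higher in MR49F (log2 fold change 3.16, SE 0.309, edgeR adjusted p = 2.26e-08). UGT2B28 was 6.35 times higher (log2 fold change 2.67, SE 0.504, edgeR adjusted p = 1.16e-04), on 25 counts in MR49F and 8 in C4-2. Thus 1 of the 5 tested members was lower and 2 were higher, against 31.1% and 29.9% of all tested genes, or 61% in either direction. UGT2B15, UGT2B11 and UGT2B28 did not overlap between MR49F and C4-2, nor did 61.9% of all tested genes. Of all genes, 5.46% were called lower at a log2 fold change of -2 or below and 1.93% called higher at 2 or above. UGT2B17 did not pass (log2 fold change -0.38, SE 0.296, edgeR adjusted p = 0.273). It passed only without MR49F replicate 3, at -1.02 with an edgeR adjusted p of 0.00754. Over the other alternatives its adjusted p reached 0.782. UGT2B10 did not pass either, at -1.21 (SE 0.986, edgeR adjusted p = 0.301) on 2 counts in MR49F and 11 in C4-2, and without C4-2 replicate 1 its sign turned, to 2.60. This is the direct test of the difference between the 2 lines for each gene.

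**Figure D3:**
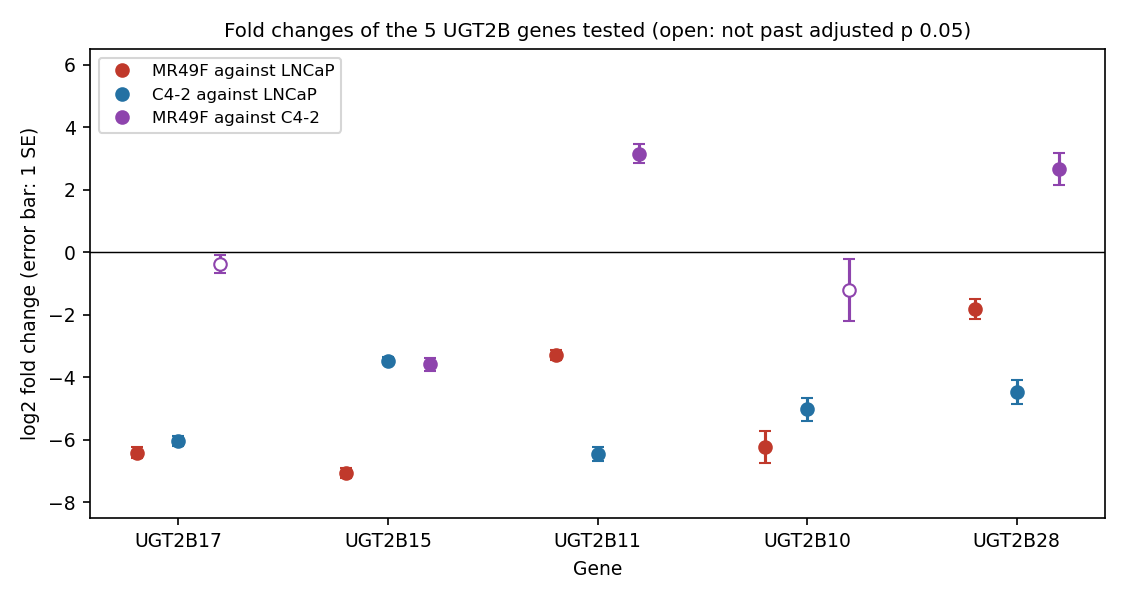
Log2 fold change of the 5 tested UGT2B genes in MR49F against LNCaP, C4-2 against LNCaP and MR49F against C4-2, with bars of 1 SE; open points did not pass an adjusted p of 0.05. All points against LNCaP lie below 0, and against C4-2 MR49F is lower for UGT2B15 and higher for UGT2B11 and UGT2B28.

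Genes beside the cluster were also followed. Within 2 Mb of the members, 13 other genes were tested. In MR49F against LNCaP 7 of these were lower and 2 higher, with a median log2 fold change of -0.31, where the median of all tested genes was 0.01. In C4-2 against LNCaP 12 of the 13 were lower and 1 higher, with a median log2 fold change of -0.69, where that of all tested genes was -0.0012. In MR49F against C4-2 it was 2 lower and 7 higher. Of all tested genes, 22.8% were called lower and 24.1% higher in MR49F against LNCaP. The shares were 23.5% and 26.2% in C4-2 against LNCaP, and 31.1% and 29.9% in MR49F against C4-2. The nearest tested gene on one side, TMPRSS11E, a membrane serine protease, had 0.609 ± 0.0422 CPM in MR49F, 2.35 ± 0.464 CPM in C4-2 and 6.85 ± 1.06 CPM in LNCaP (SD, n = 3 each). Its log2 fold change was -3.46 (SE 0.290, edgeR adjusted p = 4.08e-09) in MR49F and -1.41 (SE 0.1997, edgeR adjusted p = 6.45e-06) in C4-2, each against LNCaP. YTHDC1, a reader of methylated adenosine in RNA that lies beyond TMPRSS11E, had a log2 fold change of -0.11 (edgeR adjusted p = 0.365) in MR49F, which did not pass, and of -0.34 (edgeR adjusted p = 0.00456) in C4-2. On the other side of the cluster the nearest tested gene was ODAM, a secreted protein of enamel-forming tissue. It was lower in MR49F than in LNCaP (log2 fold change -2.21, edgeR adjusted p = 2.05e-06) and higher in C4-2 than in LNCaP (0.47, edgeR adjusted p = 0.0462). In C4-2 the neighbour with the lowest fold change, TMPRSS11E, was still above all 5 members, whereas in MR49F it was below UGT2B11 and UGT2B28.

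**Figure D4:**
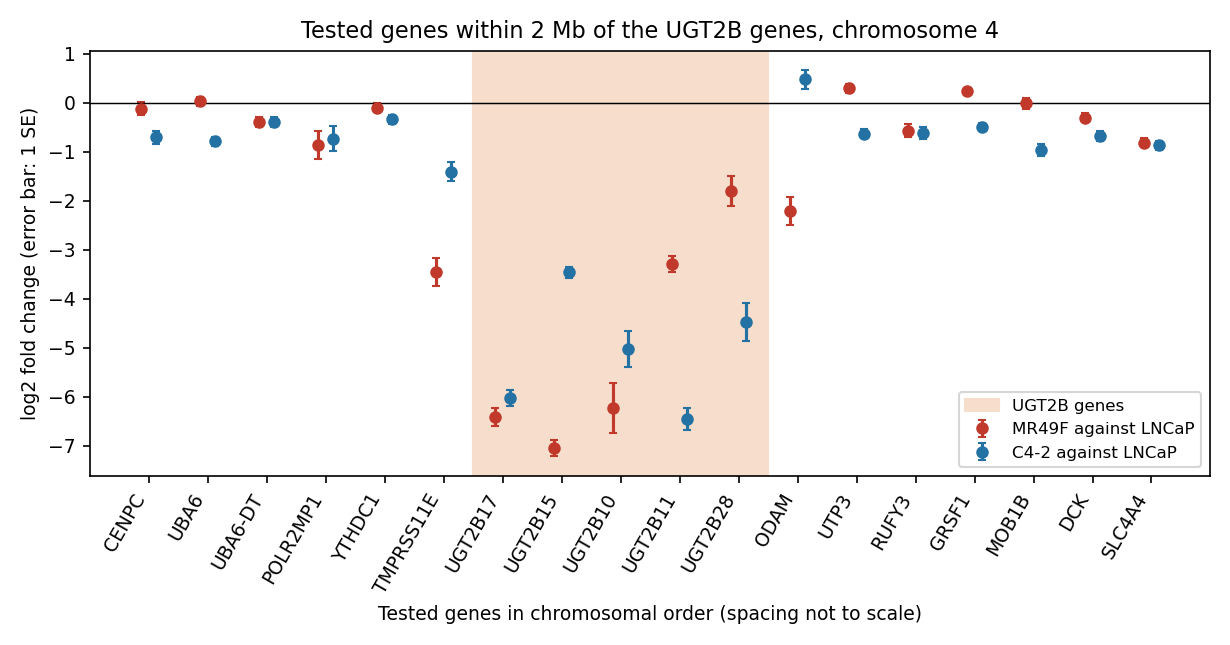
Log2 fold change (bars of 1 SE) of the 18 tested genes within 2 Mb of the UGT2B genes, in chromosomal order, for MR49F and C4-2, each against LNCaP. The UGT2B genes, shaded, lie between -1.81 and -7.06, and the 13 other genes lie between -3.46 and 0.47.

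Of the 35 gene rows inside the cluster's span, 13 had a count in any library, and the 5 tested were all members. The 5 annotated UGT2B pseudogenes together had 7 counts in MR49F, 2 in C4-2 and 24 in LNCaP. This was far below the summed members, with 186, 676 and 7284 counts. It was not below each member: UGT2B7 and UGT2B10 had 2 counts each in MR49F, and UGT2B7 had 7 in LNCaP. Counts were also scarce in the neighbouring UGT2A branch: UGT2A3 had 0 counts in MR49F, 0 in C4-2 and 2 in LNCaP.

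Promoter sequences of 4 members were found in the RefSeq table used (GRCh38.p14), those of UGT2B7, UGT2B10, UGT2B11 and UGT2B15, each from 250 bases before to 50 after the gene's start. The 250 bases before the start are shown for UGT2B15, one of the androgen-conjugating pair, and for UGT2B10 and UGT2B11, whose promoters were 90.1% identical to each other and 67.4% and 69.5% identical to that of UGT2B15. Capitals mark exact matches to the motifs searched. They lie at chr4:68670653-68670902 (UGT2B15, minus strand), chr4:68815744-68815993 (UGT2B10, plus strand) and chr4:69214749-69214998 (UGT2B11, minus strand).
UGT2B15: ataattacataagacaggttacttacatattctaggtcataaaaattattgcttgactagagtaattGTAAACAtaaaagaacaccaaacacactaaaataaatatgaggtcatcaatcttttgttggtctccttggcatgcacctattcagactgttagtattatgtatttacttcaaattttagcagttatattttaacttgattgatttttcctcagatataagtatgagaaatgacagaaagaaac
UGT2B10: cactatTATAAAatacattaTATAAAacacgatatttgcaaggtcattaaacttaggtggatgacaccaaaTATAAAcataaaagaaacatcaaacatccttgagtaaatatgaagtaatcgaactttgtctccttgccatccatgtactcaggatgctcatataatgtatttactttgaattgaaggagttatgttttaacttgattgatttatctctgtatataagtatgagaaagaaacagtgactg
UGT2B11: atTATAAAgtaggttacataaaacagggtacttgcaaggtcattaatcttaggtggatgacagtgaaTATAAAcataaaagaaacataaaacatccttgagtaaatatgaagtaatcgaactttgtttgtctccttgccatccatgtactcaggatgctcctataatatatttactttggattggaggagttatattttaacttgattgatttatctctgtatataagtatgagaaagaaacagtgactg
The letters searched, on both strands, were TGTTTAC for forkhead factors such as FOXA1, TATAAA for the TATA box, and GTTAAT for a half-site of HNF1. The whole HNF1 element, which contains GTTAAT, was searched as well. In UGT2B15 the forkhead letters stood on the opposite strand at bases 183 to 177 before the start. Among 35116 promoters of the same length, 3.4% held the forkhead letters and 11.5% TATAAA. The TATA letters occurred at 3 places in UGT2B10, beginning 244, 230 and 179 bases before the start. In UGT2B11 they occurred at 2 places, beginning 248 and 183 bases before the start. GTTAAT, found in 6.9% of promoters, and the longer HNF1 element, found in 0.1%, were not in these windows, and UGT2B7 held no match to any of the 4 motifs. These are letters in a reference sequence and were not measured in these cells.

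Of 24 transcription factors reported to bind or control UGT2B genes 15 were tested. In MR49F against LNCaP 5 were higher and 1 lower, with a median log2 fold change of 0.10. In C4-2 against LNCaP 6 were higher and 2 lower, with a median of 0.30. Of all tested genes, 24.1% were called higher and 22.8% lower in MR49F, and 26.2% and 23.5% in C4-2. The medians of all tested genes were 0.01 and -0.0012. FOXA1, the pioneer factor of prostate luminal cells, had 430 ± 24.5 CPM in MR49F, 376 ± 8.53 CPM in C4-2 and 399.9 ± 8.01 CPM in LNCaP (SD, n = 3 each), and passed the test against LNCaP in neither line (edgeR adjusted p = 0.248 in MR49F and 0.326 in C4-2). PPARG, a lipid-sensing nuclear receptor, was higher in MR49F (log2 fold change 1.31, edgeR adjusted p = 1.11e-06) and in C4-2 (1.25, edgeR adjusted p = 1.17e-06) than in LNCaP. PKNOX1, a homeodomain partner of PBX2, was also higher in MR49F (log2 fold change 0.84, edgeR adjusted p = 3.18e-07) and in C4-2 (0.47, edgeR adjusted p = 3.24e-04). GRHL2, an epithelial transcription factor, was higher by 0.55 in MR49F (edgeR adjusted p = 2.98e-06) and by 1.17 in C4-2 (edgeR adjusted p = 3.71e-11) on the log2 scale. PBX2, a homeodomain factor, was higher by 0.40 in MR49F (edgeR adjusted p = 0.00293) and by 0.49 in C4-2 (edgeR adjusted p = 3.35e-04) on the log2 scale. KLK3, the androgen-responsive gene that encodes prostate-specific antigen, was at 3435 ± 165 CPM in MR49F, 4423 ± 440 CPM in C4-2 and 2697 ± 93.3 CPM in LNCaP (SD, n = 3 each), and so was higher in both lines in which the UGT2B genes were lower (log2 fold change 0.35, edgeR adjusted p = 0.00127 in MR49F; 0.71, edgeR adjusted p = 3.12e-07 in C4-2).

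Of 16 other UGT genes listed, UGT2B4 among them, 3 had enough counts to test, namely UGT8, UGT1A1 and UGT1A3. UGT1A1 and UGT1A3 passed the filter on low counts through C4-2 alone, so a call could only be higher there, and their values are given as counts. UGT8, which builds galactolipids, had 12.3 ± 0.935 CPM in MR49F, 70.6 ± 1.68 CPM in C4-2 and 10.6 ± 0.691 CPM in LNCaP (SD, n = 3 each). Its log2 fold change was 2.74 (SE 0.105, edgeR adjusted p = 1.54e-14) in C4-2 and 0.22 (edgeR adjusted p = 0.147) in MR49F, each against LNCaP. UGT1A1, the bilirubin-conjugating enzyme, had 6 counts in MR49F, 128 in C4-2 and 1 in LNCaP, and was 57.6 times higher in C4-2 than in LNCaP by pooled counts (95% interval 10.2 to 2291, counting error only). UGT1A3, of bile acid and steroid conjugation, had 0 counts in MR49F, 140 in C4-2 and 1 in LNCaP, and was 62.9 times higher in C4-2 than in LNCaP by pooled counts (95% interval 11.1 to 2504, counting error only). UGT1A genes share their last exons, so the split of counts among them is uncertain. C4-2 had lower counts of the tested UGT2B genes than LNCaP and higher counts of UGT1A1 and UGT1A3. MR49F also had lower counts of the tested UGT2B genes than LNCaP, and few of UGT1A1 or UGT1A3. These UGT1A genes were named after their values were seen and do not stand for the UGT1A genes as a group.

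The genes listed for the donor sugar showed no common direction. The list mixes genes that make it with carriers and with UXS1, which uses it up, so the counts do not describe supply alone. Of 9 tested genes for UDP-glucuronic acid, 3 were higher and 2 lower in MR49F than in LNCaP, with a median log2 fold change of 0.11. In C4-2 against LNCaP 3 were higher and 4 lower, with a median of -0.03. Of all tested genes, 24.1% were called higher and 22.8% lower in MR49F, and 26.2% and 23.5% in C4-2. The medians of all tested genes were 0.01 and -0.0012. UGDH, the dehydrogenase that makes UDP-glucuronic acid, had 122 ± 9.67 CPM in MR49F, 74.0 ± 1.35 CPM in C4-2 and 107 ± 4.24 CPM in LNCaP (SD, n = 3 each). It did not pass in MR49F against LNCaP (log2 fold change 0.20, edgeR adjusted p = 0.0521) and was lower in C4-2 than in LNCaP (-0.53, edgeR adjusted p = 1.76e-05). PGM1, the phosphoglucomutase upstream of it, was lower in MR49F (log2 fold change -0.72, edgeR adjusted p = 2.36e-06) and in C4-2 (-1.47, edgeR adjusted p = 7.44e-11). UXS1, which turns UDP-glucuronic acid into UDP-xylose, was higher in MR49F (log2 fold change 0.43, edgeR adjusted p = 7.71e-04) and in C4-2 (0.73, edgeR adjusted p = 1.08e-06). HK1, a hexokinase, was lower in MR49F than in LNCaP (-0.49, edgeR adjusted p = 1.39e-05), and SLC35B1, a nucleotide transporter of the endoplasmic reticulum, was higher (0.51, edgeR adjusted p = 5.16e-04).

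Among 13 tested genes of androgen synthesis and conversion, 2 were higher and 4 lower in MR49F than in LNCaP, with a median log2 fold change of -0.59. In C4-2 against LNCaP 6 were higher and 2 lower, with a median of 0.31. Of the 6, CYP11A1, HSD3B1, AKR1C1 and AKR1C2 passed the filter on low counts only through C4-2, the line in which they were high. The count and median of C4-2 thus say little of the list. Those of MR49F hold the same 4 genes, each at 24 counts or fewer over MR49F and over LNCaP, and so say little as well. Of all tested genes, 24.1% were called higher and 22.8% lower in MR49F, and 26.2% and 23.5% in C4-2. The medians of all tested genes were 0.01 and -0.0012. CYP11A1, the side-chain cleaving enzyme that begins steroid synthesis, had no count in MR49F, 213 in C4-2 and 22 in LNCaP. It was at least 7.57 times lower in MR49F than in LNCaP, against a floor of 3 counts over the line (edgeR adjusted p = 6.04e-05), and higher in C4-2 than in LNCaP (log2 fold change 2.06, edgeR adjusted p = 8.65e-06). HSD17B11, a dehydrogenase that acts on androstanediol, was lower in MR49F (log2 fold change -1.17, edgeR adjusted p = 1.06e-06) and did not pass in C4-2 (-0.02, edgeR adjusted p = 0.931). HSD17B12, which also serves fatty acid elongation, was lower in MR49F (-0.73, edgeR adjusted p = 1.31e-06) and higher in C4-2 (0.71, edgeR adjusted p = 7.72e-07), each against LNCaP. HSD17B10, a mitochondrial dehydrogenase, was higher in MR49F (0.57, edgeR adjusted p = 3.58e-05). HSD17B4, an enzyme of peroxisomal oxidation and the gene of highest level in the list that did not pass in MR49F, had a log2 fold change of -0.07 there (edgeR adjusted p = 0.453). The further genes higher in C4-2 than in LNCaP included AKR1C1 and AKR1C2, near-identical reductases of dihydrotestosterone and progesterone, for which the split of counts is uncertain.

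Sulfonation is the other conjugation route of steroids. The list held its genes together with those for the hydrolysis of steroid conjugates, glucuronides included. Of 7 tested genes, 2 were lower in MR49F than in LNCaP and the other 5 did not pass, and in C4-2 against LNCaP 4 were higher and 3 lower. The median log2 fold changes were -0.10 and 0.59, where those of all tested genes were 0.01 and -0.0012. Of all tested genes, 24.1% were called higher and 22.8% lower in MR49F, and 26.2% and 23.5% in C4-2. SULT1A1, a phenol sulfotransferase with near-identical copies, was lower in MR49F (log2 fold change -0.43, edgeR adjusted p = 0.00173) and in C4-2 (-0.61, edgeR adjusted p = 5.02e-05). GUSB, the lysosomal enzyme that splits glucuronides, was lower in MR49F (-0.31, edgeR adjusted p = 0.0151) and higher in C4-2 (0.59, edgeR adjusted p = 4.25e-05). PAPSS1, which makes the sulfate donor, did not pass in MR49F (-0.10, edgeR adjusted p = 0.335).

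Of 7 tested transporters that carry steroid conjugates across the membrane, 3 were higher and 1 lower in MR49F than in LNCaP, and in C4-2 against LNCaP 5 were higher and the other 2 did not pass. The median log2 fold changes were -0.01 and 0.46, where those of all tested genes were 0.01 and -0.0012. Of all tested genes, 24.1% were called higher and 22.8% lower in MR49F, and 26.2% and 23.5% in C4-2. SLCO3A1, an organic anion carrier, had 19 counts in MR49F, 957 in C4-2 and none in LNCaP. It passed the filter on low counts only through C4-2. It was at least 6.14 times higher in MR49F and at least 143 times higher in C4-2, against a floor of 3 counts over LNCaP. ABCC4, an exporter of steroid conjugates, was higher in MR49F (log2 fold change 0.35, edgeR adjusted p = 7.30e-04), as was ABCC10 (0.37, edgeR adjusted p = 0.0306). ABCC5, an exporter of nucleotides and conjugates, was lower in MR49F (-0.60, edgeR adjusted p = 6.30e-05). ABCC1, the most abundant of those that did not pass in MR49F, had a log2 fold change of -0.18 (edgeR adjusted p = 0.0589). These 6 lists were chosen with earlier results of these data known, and their counts are descriptions.

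The genes whose pattern over the 9 libraries was most like the summed members were DSC2, CACNA1H, PAK1, ETV1, RIMS1 and LINC01516. They were ranked among 547 genes by the Pearson correlation of log2(CPM + 1), which lay between 0.989 and 0.997. The libraries fall into 3 lines, so this value describes the order of the line means and is given with no test. DSC2, a desmosomal cadherin, had 70.2 ± 5.68 CPM in MR49F, 92.4 ± 11.5 CPM in C4-2 and 504 ± 36.0 CPM in LNCaP (SD, n = 3 each). PAK1, a kinase downstream of small GTPases, had 0.464 ± 0.247 CPM in MR49F, 1.42 ± 0.234 CPM in C4-2 and 26.9 ± 2.95 CPM in LNCaP (SD, n = 3 each). ETV1, an ETS family transcription factor, had 3 counts in MR49F, 14 in C4-2 and 7654 in LNCaP, and was 2633 times lower in MR49F than in LNCaP by pooled counts (95% interval 900.7 to 12770, counting error only). CACNA1H, a calcium channel subunit, had 0.846 ± 0.415 CPM in MR49F, 1.40 ± 0.206 CPM in C4-2 and 14.4 ± 0.576 CPM in LNCaP (SD, n = 3 each). RIMS1, a protein of synaptic vesicle release, had 4.84 ± 0.895 CPM in MR49F, 6.23 ± 0.745 CPM in C4-2 and 48.6 ± 2.38 CPM in LNCaP (SD, n = 3 each). LINC01516 had 1 count in MR49F, 1 in C4-2 and 286 in LNCaP.

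The UGT2B genes are strongly expressed in liver, and hepatocyte markers were read beside them. Their summed level over 6 markers was 2.41 to 3.80 CPM in MR49F, 7.72 to 12.5 CPM in C4-2 and 17.8 to 22.9 CPM in LNCaP. In LNCaP it came mainly from ALB, serum albumin, at 15.7 ± 1.62 CPM (SD, n = 3), and 2 of the 6 were at 1 CPM or more. In C4-2 it came mainly from TTR, a thyroid hormone carrier, at 8.86 ± 2.28 CPM (SD, n = 3). ALB was lower than in LNCaP in MR49F (log2 fold change -2.89, edgeR adjusted p = 3.46e-10) and in C4-2 (-3.93, edgeR adjusted p = 4.16e-12). TTR, the other hepatocyte marker tested, was lower in MR49F (-2.74, edgeR adjusted p = 1.69e-05) and higher in C4-2 (1.46, edgeR adjusted p = 2.16e-05) than in LNCaP, where it had 3.44 ± 1.23 CPM (SD, n = 3). APOB, a defining hepatocyte gene, had no count in any library, and APOA1 had none in LNCaP. Of 3 fibroblast markers, COL1A1 was at 5.72 ± 0.125 CPM in MR49F, 16.5 ± 2.76 CPM in C4-2 and 25.4 ± 2.06 CPM in LNCaP (SD, n = 3 each), while COL1A2 had no count in any library. The part of these markers in the UGT2B differences was not tested.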

How the data were processed

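RNA of 4 prostate adenocarcinoma lines with 3 biological replicates each was sequenced with a TruSeq stranded kit, per the labels. The authors deposited raw counts per Ensembl gene as whole numbers in 1 table. Per the submitters' processing notes, the tools included HTSeq 0.6.1, TopHat2, edgeR 3.12.1 and FastQC 0.11.3, with GRCh38.p12 as the build, in no stated role or order. Strand setting, annotation release and the treatment of reads matching several genes are not given in the labels or headers, so counts of near-identical, overlapping or antisense genes are uncertain.

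Columns matching MR49F, C4-2 and LNCaP titles (9) were used. The remaining 3 columns could not be matched by name to a sample and were used in no step, so the planned comparison of C4-2R with C4-2 was not made. Of 57992 IDs, 56948 matched a table of names and 57388 matched GENCODE 29, which gave coordinates, exon lengths and coding sequences. No row lacked a gene ID.

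One fit of edgeR 4.0.16 in R 4.3.3 (robust quasi-likelihood, TMM, filterByExpr by line with a minimum of 10 counts, 6 residual degrees of freedom, common biological coefficient of variation 0.0817) tested 15407 genes. Adjusted p under 0.05 was a call. The script was tested on simulated data. Low counts are given as ratios of pooled counts, scaled by library size, with an exact 95% binomial interval, or as bounds against 3 counts over a line. PCR copies cannot be told from separate molecules here, so intervals and floors cover counting error only. No 2 replicates differed by as little as counting noise (chi-square per degree of freedom 1.5 to 24.1).

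The members, gene lists and tests were chosen with earlier results of these data known. Named are all members, UGT2B4, KLK3, all tested genes within 2 Mb (those beside the cluster in full), from each list up to 4 tested genes of lowest adjusted p in MR49F against LNCaP plus the gene not passing with the highest level, and the 6 genes most like the summed members among those of at least 10 CPM in 1 line and a 4-fold range. UGT1A1, UGT1A3, UGT2A3, HSD3B1, AKR1C1 and AKR1C2 are named beyond that rule, after their values were seen. Sequences were compared with Biopython 1.88. No protein table was used, so identity was taken on coding bases in place of the planned protein identity. Alternatives were DESeq2 1.42.0, limma-voom (limma 3.58.1), RLE scaling, other filters, fewer libraries, a replicate block and C4-2 replicate 1 thinned to 17.6% of its counts. One gene and the promoter motifs tied to it are not reported here.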

Additional observations from a re-analysis of the deposited data

How the results depend on the processing

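All member calls against LNCaP kept their direction and stayed past the threshold in every alternative run, with fitted log2 fold changes of -7.41 to -1.66 in MR49F and -8.76 to -3.44 in C4-2. In MR49F against C4-2, UGT2B10 turned to 0.60 with C4-2 replicate 1 thinned and ranged from -1.59 to 2.60 with 1 library left out, never passing (adjusted p 0.185 to 0.721 over the edgeR alternatives, 0.38 with DESeq2 and 0.844 with limma-voom). UGT2B17 there ranged from -1.02 to -0.11 with 1 library left out (adjusted p 0.00754 to 0.782 over its alternatives), and it passed only without MR49F replicate 3. With only the 6 libraries compared, UGT2B10 and UGT2B28 had too few counts to be tested in that comparison. The summed level of LNCaP moved to 297.1 CPM with no scaling and to 280.2 CPM without UGT2B7 and UGT2B10, and the mean UGT2B11 share in LNCaP, 12.25% by counts, moved to 10.99% per exon length. These moves follow from the settings. The scaling factors of the LNCaP libraries were 1.03 to 1.044. UGT2B10, left out of the second sum, had 6.49 CPM in LNCaP. UGT2B11 has 2340 bases of exon, against 2077 in each of UGT2B15 and UGT2B17. With the replicate number as a block, 7115, 7460 and 9261 genes were called in MR49F against LNCaP, C4-2 against LNCaP and MR49F against C4-2, in place of 7235, 7658 and 9392, and no member's call changed. Same-numbered libraries did not deviate together (correlations -0.0832 to 0.0562 over 9 pairs, best with the own number in 5 of 18), so the numbers do not pair the samples. Depth limits UGT2B7, UGT2B10 and UGT2B28 most, at under 1.2 CPM in MR49F and C4-2. It also limits UGT2B15 in MR49F, on 19 counts, and UGT2B11 in C4-2, on 22 counts. By pooled counts against LNCaP, UGT2B15 was 135 times lower in MR49F (95% interval 86.2 to 224, counting error only). UGT2B11 was 90.7 times lower in C4-2 (59.5 to 145).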
